A study of Drosophila melanogaster with 4 samples.

Results

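The strongest Myc peaks of ordinary width were 241 regions on the 6 chromosome arms of Drosophila melanogaster, out of 8614 peaks in the whole list. They were chosen by their score and width in the authors' list, as peaks on the arms 2L and 2R, 3L and 3R, 4 and X with a score above 500 and a width of at most 3000 bp, and are called strong peaks here. Those values are given as a description only. Of the 7645 arm peaks at most 3000 bp wide, these were 3.15%, and the other 7404 are the comparison set, called the other peaks. A further 36 arm peaks scored above 500 but were wider than 3000 bp, so that 3.52% of all 7867 arm peaks scored above 500. All coordinates are Release 5, as in the list, and count from 1.

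Myc is a basic helix-loop-helix protein that binds DNA as a dimer with its partner Max. It is known as a driver of cell growth, with ribosome assembly and translation genes among its best known targets. Wandering larvae, close to pupariation, hold both polyploid larval tissues and dividing imaginal discs, so a peak from whole larvae mixes many cell types. The list maps Myc by chromatin immunoprecipitation and sequencing (ChIP-seq), in which DNA bound by the protein is pulled down with an antibody and sequenced.

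The labels describe 2 libraries precipitated with a rabbit polyclonal antibody against Drosophila Myc, the product of the gene dm, and 2 libraries of input DNA. All 4 came from untreated whole third-instar larvae of 1 strain, of unrecorded sex, in which the body colour allele y[1] and the eye and body markers cn[1], bw[1] and sp[1] are combined with Rh6[1], GstD5[1], MstProx[1], LysC[1], Gr22b[1] and Gr22d[1] and with the alleles oc[R3.2], lab[R4.2] and CG33964[R4.2]. The outcome is 1 list with no value for a single library, so the depth is unknown and no spread between replicates can be given. Every interval of a share or median below is an exact 95% interval that treats peaks as independent and covers counting error only. The interval of a difference is that of the strong peaks less the value of the other peaks, taken as fixed. It leaves out the counting error of the other peaks. No test was made, since positions, widths and scores all come from the ChIP signal that chose the strong peaks.

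The strong peaks were of middling to large width and spread over a wide range of scores. Their median score was 617.66, with an interquartile range from 553.78 to 702.49 and a maximum of 1011.32. Of the 241, 107 scored up to 600, 71 between 600 and 700, 42 between 700 and 800, and 21 above 800. The median width was 1583 bp (interval 1522 to 1676 bp) and ran from 835 to 2967 bp, with 6 peaks under 1000 bp and 63 over 2000 bp. The other peaks had a median width of 711 bp, and 58.7% of them were narrower than the narrowest strong peak. Across the other peaks, score and width had a Spearman's rho of 0.80, but across the strong peaks it was 0.16 (n = 241). Both values come from the same caller and signal, and a narrower range of scores can by itself lower such a coefficient.

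The ends of the rule had close values on both sides. The weakest strong peaks scored 500.57 (X), 500.79 (3L) and 501.09 (chromosome 4), and the first peaks left out scored 498.96 (3R), 498.82 (3L) and 497.84 (X). By width, the last peaks let in were 2967 bp and 2954 bp wide on 2L and 2949 bp wide on X. The first ones left out were 3066 bp wide on X, and 3123 bp and 3134 bp wide on 2L. The narrowest strong peaks were 835 bp wide (2L, 14094395 to 14095229, score 509.54), 892 bp (2L, 12520021 to 12520912, score 563.72) and 908 bp (2R, 16771558 to 16772465, score 553.78). None of these 3 had another arm peak within 5 kb. Of the 3 widest, those on 2L from 2854901 and from 4331483 had no peak within 5 kb either, and the one on X from 18409029 had 2.

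**Figure D1:**
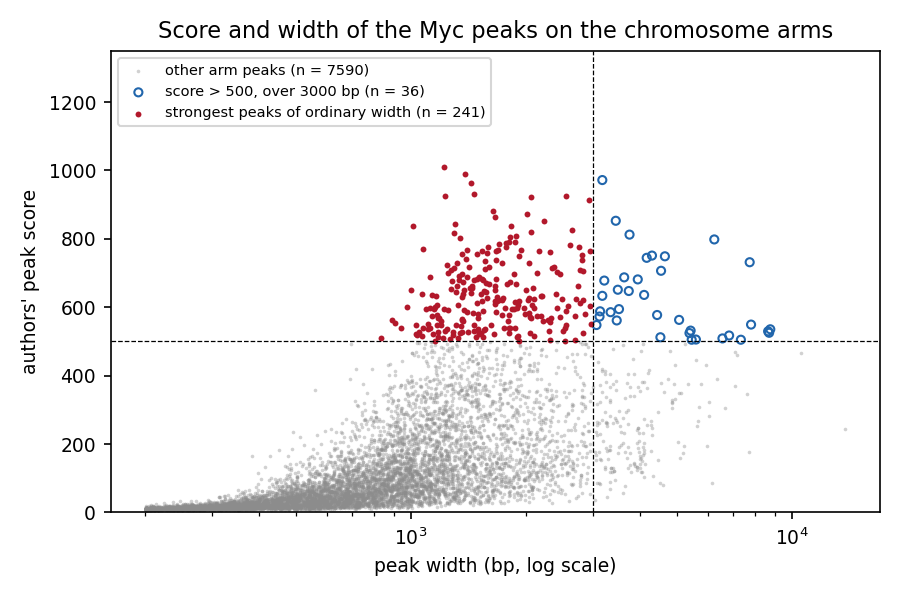
Score, as the authors' peak caller gave it, against width in bp (log scale) of each arm peak, with dashed lines at a score of 500 and a width of 3000 bp. The 241 strong peaks (red) lie between 835 and 2967 bp, and the 36 peaks above 500 that are wider (blue circles) lie to the right of the width line.

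Strong peaks were found on every arm, with the lowest share on 2R and the highest on 2L. On 2R, 29 of 1439 peaks at most 3000 bp wide were strong, or 2.02% (interval 1.35% to 2.88%). On 2L, 57 of 1399 were, or 4.07% (interval 3.10% to 5.25%). The intervals of these 2 arms did not overlap. The arms were picked as the lowest and highest after the shares were seen, so this cannot be read as a comparison. The arms 3R, X and 3L lay between them at 3.57%, 3.06% and 2.99%, with 63, 43 and 46 strong peaks, and their intervals overlapped one another. Chromosome 4 had 3 of 96, or 3.12%, an interval from 0.649% to 8.86%. Put the other way, 12.03% of the strong peaks were on 2R, where 18.8% of all arm peaks up to 3000 bp lay, and 23.7% were on 2L, against 18.3%. The share on 2R was 15.7% (interval 12.4% to 19.6%) above a score of 400 and 12.7% (7.57% to 19.5%) above 600, and both intervals covered the background. X held 17.8% of the strong peaks, against 18.4%, 3R 26.1% against 23.1%, 3L 19.1% against 20.1% and chromosome 4 1.24% against 1.26%. Over the span from the first base of an arm to its last peak, there were 1.37 strong peaks per Mb on 2R and 2.48 on 2L.

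On each long arm the 3 strongest peaks differed in how alone they stood. The strongest of all, on 3L from 22400522 to 22401739, had no peak for 55.5 kb on one side and 46.6 kb on the other. Its nearest peak was itself strong, with a score of 597.94. The strongest on 2L, scoring 988.67 between 14233601 and 14234981, had its nearest peak 16.4 kb away, and this too was strong, at 504.8. On X the peak from 17400738 to 17402171, scoring 963.9, had a peak with a score of only 7.92 at a distance of 72 bp and none for 50.2 kb on the other side. The X peak from 20127432 (score 930.38) bordered an empty stretch of 131.8 kb. The third on X, from 1832959 (score 924.02), had 1 neighbour within 5 kb, with a score of 27.02.

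The other leading peaks had few or weak neighbours. On 2L, the peak from 5519304 (863.32) had 1 within 5 kb, scoring 159.72, and the one from 20120230 (844.65) had none. On 3L, neither the peak from 19055210 (881.81) nor that from 673055 (816.43) had any. On 3R, the peaks from 20655149 (925.32) and from 3634445 (852.26) had none, and the one from 303999 (921.42) had 1, scoring 8.99. The 2R peaks were lower, at 827.01 for the one from 2948523, with no neighbour, and at 777.49 and 767.71 for those from 7089401 and 14047278, with 2 and 1. Of these 15 peaks none had a second strong peak within 5 kb.

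Strong peaks, only 3.15% of the arm peaks up to 3000 bp wide, lay far apart, most often with other Myc peaks between them. Their spacing moved with the score limit, from a median interval of 189020 bp above 400 to 463305 bp above 600. It was not compared with that of an equal number of other peaks, so it is no trait of strong peaks beyond their number. Over 235 intervals between consecutive strong peaks of an arm, the median was 289.0 kb, with an interquartile range from 116.1 to 619.4 kb, and a median of 18 other arm peaks lay between. In 14 intervals no other peak lay between. There were 53 intervals under 100 kb, or 22.6%, and 33 over 1 Mb, or 14.04%. By arm, the median interval ran from 189.9 kb on 3L to 407.0 kb on X, leaving out chromosome 4 with its 2 intervals. In 116 full bins of 1 Mb on the long arms there were 2.04 ± 1.66 strong peaks (mean ± SD over bins). Of these bins, 22 held none, 29 held 1, 29 held 2, 11 held 3 and 25 held 4 or more, with at most 6.

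**Figure D2:**
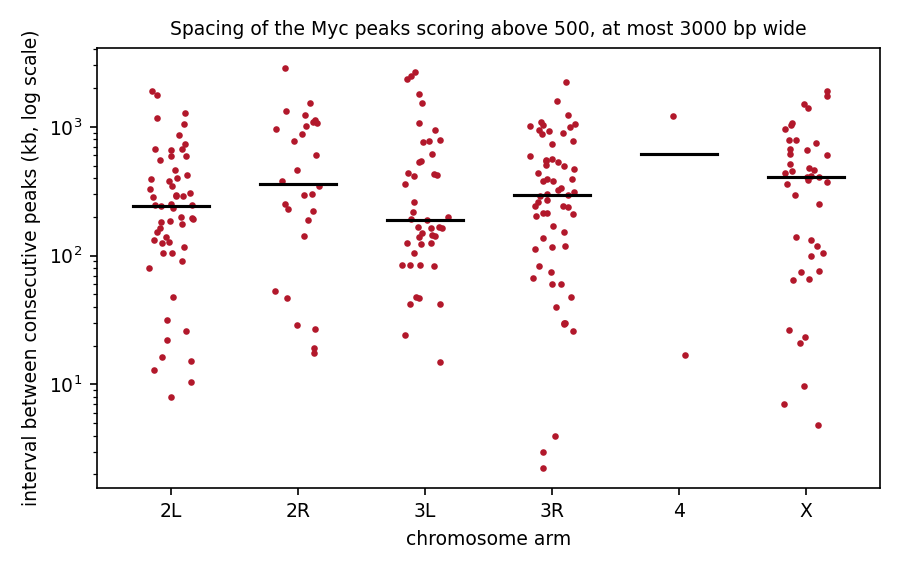
Each point is the interval in kb (log scale) from the end of one strong peak to the start of the next on the same arm, and the bar is the arm's median. The points reach from about 2 kb, for a pair on 3R, to 2.88 Mb on 2R, and 3L has 3 points above 2 Mb.

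Long stretches without a strong peak were not empty of Myc peaks. The longest, 2.88 Mb on 2R between 2951170 and 5829893, held 231 arm peaks with a median score of 66.8, 1 of them above 500 and over 3000 bp wide. On 3R the longest was 2.25 Mb with 158 peaks, and on 2L and X it was 1.90 Mb each, with 128 and 135 peaks. On 3L, 3 such stretches followed one another. Between 11517377 and 19055210, over 7.54 Mb, 2 of 493 peaks up to 3000 bp were strong, or 0.406% (interval 0.0492% to 1.46%). On the rest of 3L, 44 of 1044 were strong, or 4.21% (interval 3.08% to 5.62%). The peaks inside and outside were alike in median score, at 54.3 and 61.0, and in median width, at 691 and 749 bp. Each side also held 2 wider peaks above 500. The stretch was singled out after its values were seen, and it joins the 3 longest intervals without a strong peak on 3L. Its low share follows from that choice, so the intervals of the 2 shares cannot be read as a comparison.

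Pairs of strong peaks within 5 kb of each other were rare, at a rate like that around other peaks. A strong peak had another within 5 kb in 8 of 241 cases, or 3.32% (interval 1.44% to 6.44%). Of all arm peaks up to 3000 bp wide, 3% had a strong peak within 5 kb. These 8 peaks formed 4 pairs. On 3R the closest lay 2244 bp apart, from 1295536 to 1297294 (score 597.74) and from 1299539 to 1301211 (738.98). The next, 2991 bp apart, began at 16958971 (585.42) and 16963633 (653.37), and the third, 3974 bp apart, at 9850621 (530.98) and 9857092 (512.96). On X, peaks from 2625639 (837.59) and 2632290 (620.92) lay 4821 bp apart. In each of these pairs the members followed each other directly in the list. Beyond 5 kb, the next pairs lay 7000 bp and 9769 bp apart on X, 8034, 10496 and 12991 bp apart on 2L, and 14975 bp apart on 3L.

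The share with a close neighbour was lower for strong peaks than for the other peaks. A peak of any score lay within 5 kb of 137 of the 241, or 56.8% (interval 50.3% to 63.2%), against 67.1% of all arm peaks at most 3000 bp wide and 67.5% of the other peaks. The median distance from edge to edge to the nearest arm peak was 3974 bp (interval 3327 to 4987 bp), against 2808 bp (2704 to 2911 bp) for the other peaks. Within 5 kb there were 0.992 arm peaks per strong peak and 1.19 per other peak. At least 2 were present for 27.8% (interval 22.2% to 33.9%), with a background of 32.2%. A neighbour less than 500 bp away was present for 29 strong peaks, or 12.03% (8.21% to 16.8%), with a background of 18.6%. For this share the difference from the other peaks, -6.81 percentage points (interval -10.6 to -2.02), had an interval that included 0 above a score of 600 (-11.2 to 0.801) and with no width limit (-7.77 to 1.10). By arm, the share with a neighbour within 5 kb ran from 48.3% for 2R, 50.9% for 2L and 52.2% for 3L to 60.3% for 3R and 67.4% for X. The other peaks of these arms lay between 66.7% and 69.9%, with the latter value on X, where the 2 shares were closest. Above a score of 600 in place of 500, the share within 5 kb was 61.2% against 67.2%. The interval of that difference, -14.8 to 2.26 percentage points, included 0. Within 10 kb the strong peaks had 79.3% against 84.7%.

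The lower share was also found among the stronger of the other peaks. The other peaks were split into 5 classes of score with nearly equal numbers. From the lowest class, scoring 6.58 to 17.69, to the highest, scoring 162.99 to 498.96, the share with a peak within 5 kb was 76.2%, 69.5%, 66.4%, 63.7% and 61.4%. The interval of the strong peaks, 50.3% to 63.2%, covered the highest class and did not reach the other 4. Among the strong peaks the share did not fall further with score, at 61.2% (interval 52.4% to 69.5%) for those above 600. For neighbours less than 500 bp away the 5 shares were 36.7%, 20.4%, 12.9%, 10.9% and 13.2%, so the strong peaks, at 12.03%, lay among the upper 3 classes.

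**Figure D3:**
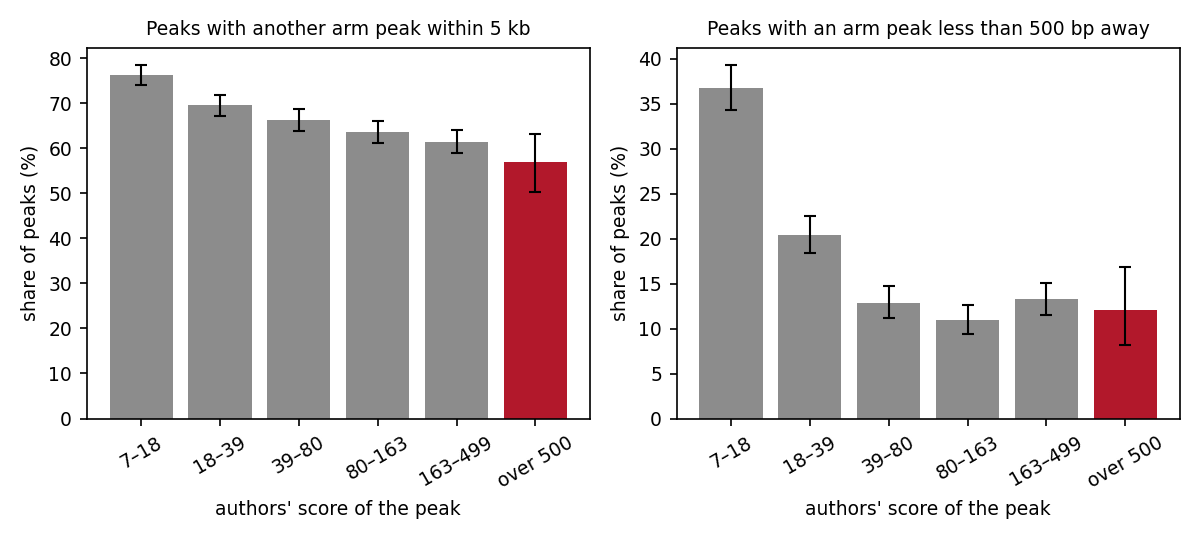
Share of peaks in percent with another arm peak within 5 kb (left) and less than 500 bp away (right), for 5 score classes of the other peaks (grey) and the strong peaks (red), with exact 95% intervals. The left bars step down from 76.2% to 56.8%, while on the right the upper 4 bars lie between 10.9% and 13.2%.

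Among peaks of like width, the strong ones again had fewer neighbours, most clearly in the narrowest class. The widths of the strong peaks were split into 4 classes with nearly equal numbers. From 835 to 1326 bp, 29 of 61 strong peaks had another arm peak within 5 kb, or 47.5% (interval 34.6% to 60.7%). Of 1865 other peaks in this class 65.6% did (63.4% to 67.7%), and the intervals did not overlap. In the next 3 classes the shares were 60.0%, 57.4% and 62.7% for strong peaks and 70.0%, 67.5% and 71.2% for the others, with intervals that overlapped. Over the whole width range of the strong peaks, 3056 other peaks gave 67.1% within 5 kb and 17.1% less than 500 bp away.

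**Figure D4:**
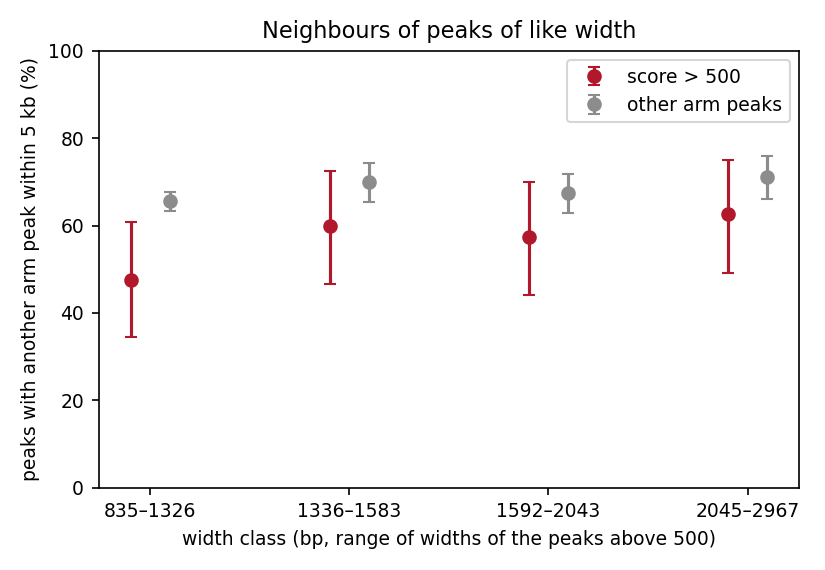
Share of peaks in percent with another arm peak within 5 kb, by width class in bp, for strong peaks (red) and other peaks (grey), with exact 95% intervals. Each red point lies below its grey partner, and the intervals are apart only in the class from 835 to 1326 bp, at 47.5% and 65.6%.

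Close to their edges, strong peaks had fewer arm peaks per kb than other peaks of their width range, but not consistently fewer than the highest score class. Counting both sides, strong peaks had 0.124 arm peaks per kb within 0.5 kb of their edges, against 0.187 for the other peaks of their width range. At 0.5 to 1 kb the values were close, at 0.0913 and 0.0946, and at 1 to 2 kb they were 0.0747 and 0.117. In the highest score class of the other peaks the 3 values were 0.138, 0.0682 and 0.0986, so strong peaks were lower in the first and last of these distances and higher in the middle one. For strong peaks and other peaks of their width range, the values at 2 to 5 kb were 0.104 and 0.104, at 5 to 10 kb 0.0900 and 0.0973, at 10 to 20 kb 0.0929 and 0.0873, and at 20 to 50 kb 0.0755 and 0.0779. Within 50 kb both sets had a median of 8 other arm peaks, with an interquartile range from 6 to 11. Long empty flanks were about as common. An interval over 50 kb without a peak bordered 25 strong peaks, or 10.4%, with a background of 11.4%, and 12 strong peaks, or 4.98%, had no arm peak within 20 kb, with a background of 5.3%.

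The few peaks less than 500 bp from strong peaks were mostly weak, but over the whole 5 kb neighbours scored much as around other peaks. Of 30 neighbours less than 500 bp from a strong peak, 3 scored above the arm median of 62.87, or 10.0% (interval 2.11% to 26.5%). Around other peaks of the same width range 165 of 571 did, or 28.9% (25.2% to 32.8%), and around the highest score class of the other peaks 54 of 205, or 26.3% (20.5% to 32.9%). Both of these intervals overlapped that of the strong peaks. The 30 neighbours had a median score of 14.2, a highest score of 142.9 and a median width of 425.5 bp. At 2 to 5 kb, 74 of 151 neighbours of strong peaks scored above the arm median, or 49.0%, and 47.5% of those around other peaks of the same width range. Neighbours within 5 kb lay evenly on both sides, with 119 at higher and 120 at lower coordinates. An arm peak above the median score was within 5 kb of 84 strong peaks, or 34.9% (28.9% to 41.2%), with a background of 42.1%, and a weaker one within 5 kb of 90, or 37.3% (31.2% to 43.8%), with a background of 44.3%.

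**Figure D5:**
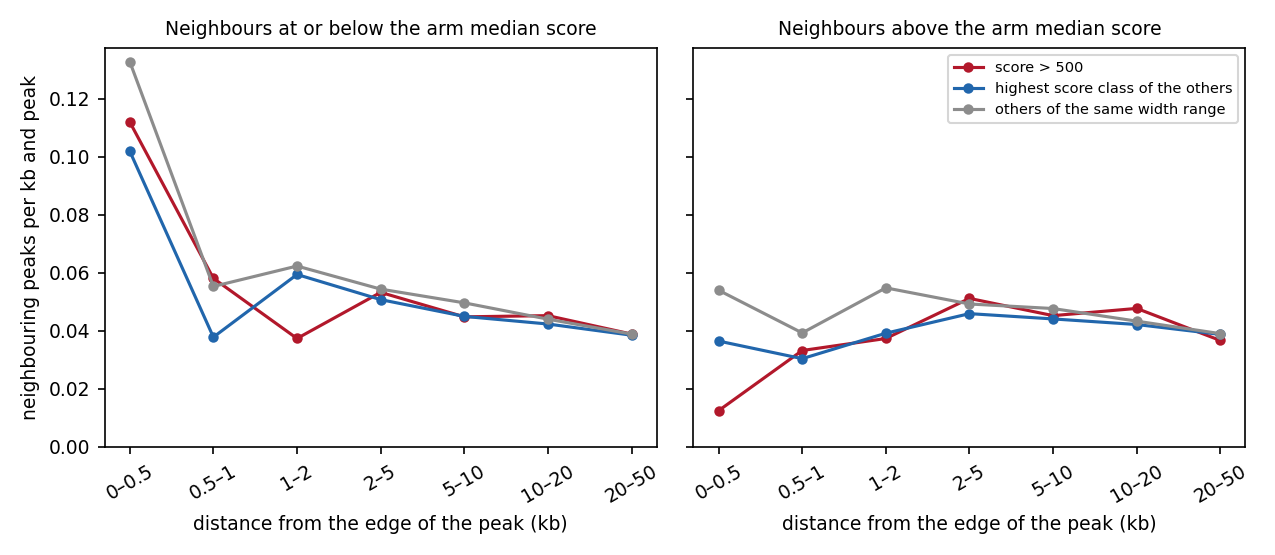
Arm peaks per kb, both sides counted, at distances of up to 50 kb from the edges of a peak, for neighbours scoring up to the arm median (left) and above it (right). The lines join strong peaks (red), the highest score class of the other peaks (blue) and other peaks of the same width range (grey); within 0.5 kb the red line on the right is at 0.0124 against 0.0540 for the grey one, and from 2 kb outward the lines lie closer together.

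Some strong peaks stood alone and others sat in groups. Grouping arm peaks with at most 5 kb between neighbours, 104 strong peaks stood alone and 137 were in groups of 2 or more. Those alone were 43.2%, against 32.55% of the other peaks, which restates the lower share with a neighbour within 5 kb. Groups of 2, 3, 4 and 5 held 17.0%, 12.9%, 12.0% and 8.30% of the strong peaks. Of the other peaks they held 24.4%, 16.7%, 11.2% and 5.69%. Groups with more than 1 strong peak numbered 7. A stronger peak lay within 5 kb of 6 strong peaks, of which 3 were on 3R and 3 on X. Low counts of both kinds follow from the rule, which took the 3.15% of arm peaks up to 3000 bp wide that scored above 500. No share of the other peaks is set beside these counts. On X, the strong peak from 12803059 to 12804584 (639.94) lay 1330 bp from its nearest peak and within 5 kb of one scoring 744.5. The X peak from 19073549 to 19074582 (518.95) lay 533 bp from its nearest peak and had one of 549.29 within 5 kb. A peak wider than 3000 bp was within 5 kb of 7 strong peaks, or 2.90%, with a background of 4.19%.

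By the number of arm peaks within 5 kb, 3 of the 5 most crowded strong peaks were on X, and 2 of these 3 were close to each other. The peak on X from 14968142 to 14971067, with a score of 914.84, had 5 arm peaks within 5 kb, none above 42.85. The strong peak 7000 bp from it, from 14959986 to 14961141 with a score of 500.57, had 4, and 3 of these were shared. Another on X, from 6549855 to 6552315 (697.62), had 4 neighbours scoring 174.13, 8.02, 77.09 and 90.41. The 2L peak from 573588 to 575363 (787.23) was flanked by weak peaks of 11.87 and 12.52 and by peaks of 285.83 and 215.41. On 2R, the one from 18573092 to 18575252 (763.99) had 4 neighbours, of which the highest scored 138.

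The most isolated strong peaks included both the strongest and one near the threshold. On X, the peak from 9903658 to 9904983, with a score of 509.54, was 59.8 kb from its nearest arm peak and had none at all within 50 kb. The strongest peak, on 3L, came next at 46.6 kb. On 2R the peaks from 12618639 (528.65) and 16825208 (663.41) were 31.8 kb and 28.0 kb from their nearest peaks. The last of the 5, on 3R from 22391442 (568.94), was 28.7 kb away, with an empty 74.99 kb on its other side. Across the strong peaks, score and distance to the nearest arm peak had a Spearman's rho of -0.07, and width and this distance one of -0.14 (n = 241 for both), as a description of peaks that share 1 list.

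On chromosome 4, a small and largely heterochromatic autosome, all 3 strong peaks had 3 neighbours within 5 kb. Those from 1296113 to 1297980 (698.33) and from 1314940 to 1317337 (638.71) lay 17.0 kb apart in 1 group of 15 peaks. The first had a neighbour of 474.25, just under the threshold, at 4382 bp. The second had 22 arm peaks within 50 kb, the most of any strong peak. The third, from 76727 to 79263 (501.09), lay 1.22 Mb away and had neighbours of 17.3, 17.09 and 27.57. No value for the other peaks of chromosome 4 is set beside these 3. Their neighbours are thus not shown to be particular to strong peaks.

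Near the centromeres, where the long arms carry few peaks of any score, strong peaks were few too. The 1 Mb windows there held 2 strong peaks, or 0.830% (interval 0.101% to 2.97%), with a background of 1.7%. Both were on 3R, from 219835 to 221589 (539.1) and from 303999 to 306066 (921.42). At the telomeric ends 13 strong peaks, or 5.39% (2.90% to 9.05%), lay in the 1 Mb windows, with a background of 4.77%. Both backgrounds were inside the intervals of the strong peaks.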

How the data were processed

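The deposited list names MACS as its source and FlyBase Release 5 as its build, per the file headers. The submitters' processing notes name BDGP5, MACS2, BWA and CASAVA (1.7.0.3 and 1.7.0.2), with no roles. Threshold, filters and pooling are not stated there. The deposited score is the authors' own value per peak, on a scale named in no header, so no ratio of scores is given. Distances run from edge to edge. Shares have exact Clopper-Pearson intervals and medians exact order-statistic intervals, in Python 3.11.15 with scipy 1.17.1. Differences have the limits of the strong peaks less the fixed value of the other peaks. Neighbours were any arm peaks, of any width. The distance and interval functions were tested on simulated data, with 201 of 201 planted isolated peaks recovered among 7867.

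The peaks, lists and classes were chosen with earlier results of these data known. Named peaks were the 3 highest per long arm, those on 4, the 5 most isolated, the 5 with most neighbours, the 10 closest pairs, the 3 widest and narrowest, and the 3 on each side of both limits; other named peaks were chosen after their values were seen. A genome of Release 5 was not used here, so genes, starts and sequences are not given.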

Additional observations from a re-analysis of the deposited data

Results flagged for a closer look

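Outside the chromosome arms, which the comparisons did not use, 6 peaks scored above 500 and were at most 3000 bp wide. They are listed because they passed a fixed limit of 3, which is not an expected count. They were 0.809% of the 742 peaks of that width there, a lower share than the 3.15% on the arms. On Uextra, which collects scaffolds with no chromosome, they began at 438774 (score 554.38), 499229 (684.75), 911793 (567.51) and 1067488 (501.95). One lay on 2RHet, from 369535 to 371080 (656.28), and one on U, from 5629660 to 5632433 (552.8), with another peak 105 bp away. The list holds no input level, so the part of repeated sequence in these scores was not tested.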

How the results depend on the processing

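Over 13 results, 62 of 83 alternatives stayed within the interval of the reported value, or within 1.5 times a count, and none reversed a difference. Those of differences, of neighbours per peak and of the share on 2R were chosen after seeing the data. Strong peaks numbered 413 above a score of 400 and 134 above 600, with median intervals of 189020 bp and 463305 bp between them. A width limit of 2000 bp gave a median width of 1450 bp and a median interval of 377011.5 bp, and no limit a width of 1692 bp. A neighbour within 2 kb was present for 27.4% and within 10 kb for 79.3%, with 0.365 and 1.90 neighbours per peak, and no strong peak had another within 2 kb (0%). From centre to centre, 46.9% had a neighbour within 5 kb, 0.693 per peak, at a median distance of 5366 bp. The share closer than 500 bp was then 0% for strong peaks and 1.59% for other peaks, a difference of -1.59 percentage points. Strong peaks were at least 835 bp wide and gaps between arm peaks at least 50 bp. Their width alone thus left almost no room for so close a centre, and this value is no check on the -6.81 from edge to edge. Counting only neighbours above the arm median score gave 34.9%, 0.427 per peak and 8683 bp, 2275 bp more than for other peaks, against 1166 bp with all neighbours. Windows of 2 Mb at the centromeric ends held 3.32%. The lower share with a neighbour within 5 kb, -10.6 percentage points, ran from -14.1 from centre to centre to -5.42 within 10 kb. The value from centre to centre takes in the greater width of strong peaks, which adds to distances between centres. Above a score of 600 the interval of the difference, -14.8 to 2.26, included 0. No paired analysis was possible because the list gives peaks of the series as a whole and nothing per library; for this reason no library was left out. Variations of the overlap with annotated starts and of the search for the binding word, which need a genome, were not run.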

Other observations

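Split at their median score, the strong peaks above it had another arm peak within 5 kb in 74 of 120 cases, or 61.7% (interval 52.4% to 70.4%), and those below it in 63 of 121, or 52.1% (42.8% to 61.2%). The nearest arm peak was a median of 857 bp wide for the first and 600 bp wide for the second. The 36 arm peaks above 500 that were wider than 3000 bp had a neighbour within 5 kb in 30 cases, or 83.3% (67.2% to 93.6%), and one less than 500 bp away in 14, or 38.9% (23.1% to 56.5%), against 56.8% and 12.03% of the strong peaks. These 2 shares of the wider peaks lay above the intervals of the strong peaks. No value for the lower scoring arm peaks over 3000 bp wide is set beside them. The shares are thus not shown to be particular to wide peaks above 500.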
